A study of Mus musculus with 54 samples.

Results

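Aminoacyl-tRNA synthetases are the enzymes that load each amino acid onto its transfer RNA. Their genes were taken by symbol from the 13611 genes of the expression matrix: 1 letter for the amino acid followed by ars, with or without a final 1 or 2, together with Farsa, Farsb and Eprs. The rule found 37 genes. Of these, 20 code for cytosolic enzymes and 17, with symbols ending in 2, for mitochondrial ones. All 37 had a mean of at least 1 FPKM in every system and entered every test. Levels are in FPKM, read fragments of a gene divided by transcript length and by the library's mapped fragments.

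Cytosolic synthetases serve translation of nuclear messages on cytosolic ribosomes, and mitochondrial synthetases, coded in the nucleus and imported, serve translation of the few proteins that mitochondrial DNA codes for. Several cytosolic enzymes sit in a multi-synthetase complex held together by the scaffold proteins Aimp1, Aimp2 and Eef1e1: Eprs, which charges both glutamate and proline, and Iars, Lars, Qars, Mars, Kars, Rars and Dars. Many cytosolic synthetase genes are known targets of ATF4, the transcription factor of the amino acid response, which raises amino acid transport and tRNA charging when amino acids run short. Kars and Gars each make the cytosolic and the mitochondrial enzyme from 1 gene, Qars has no mitochondrial partner, and Wars is known to be induced by interferon gamma.

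The series measured polyadenylated RNA after 10 Gy of gamma radiation, which breaks DNA and activates p53. The irradiated libraries of small intestine, large intestine, spleen and thymus came from C57B6 mice and were taken at each hour from 1 to 8 h and at 24 h. Those of NIH3T3, an established mouse embryonic fibroblast line, were taken at each hour from 1 to 12 h and at 24 h. Each system also had 1 library at 0 h, labelled as not treated, which gives 10 libraries per tissue, 14 for NIH3T3 and 54 in all. The labels give neither the age nor the sex of the mice, nor how many animals or cultures stand behind a library. There was no unirradiated library at any later hour, so radiation cannot be told apart from time, handling or culture.

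Marker genes matched the tissue labels. Summed FPKM over 8 small intestinal enterocyte genes was 72086 to 94258 in small intestine. Over the large intestinal genes it was 11876 to 32653 in large intestine, over 6 B cell genes 289 to 2206 in spleen, and over 6 T cell genes 260 to 2160 in thymus. In NIH3T3 the summed fibroblast genes lay at 762 to 1609 FPKM. Cdkn1a, the p53 target that stops the cell cycle, was above its 0 h value in every irradiated library. Some libraries held transcripts of another organ or were thin. The 6 h spleen library held 58854 FPKM of pancreatic acinar genes, against 8.44 to 169.7 in the other spleen libraries. The 2 h large intestine and 24 h thymus libraries held 31519 and 8734 FPKM of enterocyte genes. The 0 h large intestine library, the single baseline of its tissue, held 34.6 FPKM of keratinocyte genes, against 2.26 to 10.3 in the others, and its part in the comparisons with 0 h was not tested. The 8 h thymus library was the shallowest of its tissue, with a relative depth of 0.246 of the 0 h library. Library depth in fragments is unknown, so no counting interval is given.

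In unirradiated and irradiated libraries alike, cytosolic synthetases were the more abundant class. Their median level per library was 20.4 to 60.2 FPKM, against 3.61 to 10.4 FPKM for the mitochondrial class. Of 13 amino acids with both a cytosolic and a mitochondrial gene (Lars2 left aside), the cytosolic partner had the higher mean in 60 of 65 combinations of amino acid and system. The exceptions were Iars, the isoleucine enzyme, against Iars2 in 4 systems, and Cars, the cysteine enzyme, against Cars2 in thymus. Iars2 reached 37.9 FPKM in large intestine, where Iars had 13.3 FPKM. Iars2 shares 2034 exonic bases with Rab3gap2 on the other strand, and the libraries were not stranded, so reads from that stretch cannot be assigned to 1 of them. Phenylalanine, glutamate and proline were outside these pairs. For phenylalanine, mitochondrial Fars2 had a higher mean than the cytosolic subunit Farsa in both intestines. The means were 17.9 against 10.7 FPKM in the small one and 19.6 against 12.1 in the large one. Fars2 was below Farsa in spleen, thymus and NIH3T3, and below the other subunit, Farsb, in every system.

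The cultured fibroblasts had the highest cytosolic level, with 1147 to 1426 FPKM summed over the 20 genes per library, against 438 to 913 FPKM in the tissues. Of the 20 cytosolic genes, 17 had their highest mean in NIH3T3. Aars, the alanine enzyme, averaged 139 ± 8.69 FPKM there (SD, n = 14), against 38.9 ± 4.53 in small intestine, its next highest system (SD, n = 10). The asparagine enzyme Nars and the glutamine enzyme Qars were highest in small intestine, at 151 ± 15.4 and 107 ± 8.15 FPKM (SD, n = 10). Wars, the tryptophan enzyme, was highest in large intestine at 52.3 ± 6.53 FPKM. Mitochondrial genes had no common order: 6 were highest in thymus, 4 in large intestine and 4 in NIH3T3. The 6 in thymus include Lars2, taken up below, with a mean of 252 FPKM there but 26.2 FPKM at 0 h. Rars2, for mitochondrial arginine, was highest in small intestine at 34.4 ± 5.50 FPKM and lowest in NIH3T3 at 8.11 ± 1.21 FPKM. Vars, the valine enzyme, averaged 33.4 ± 11.8 FPKM in spleen and 24.5 ± 5.02 in thymus, against 7.11 ± 1.95 in large intestine and 6.48 ± 1.5 in small intestine. Every value in spleen and thymus was above every value in either intestine for Vars.

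**Figure D1:**
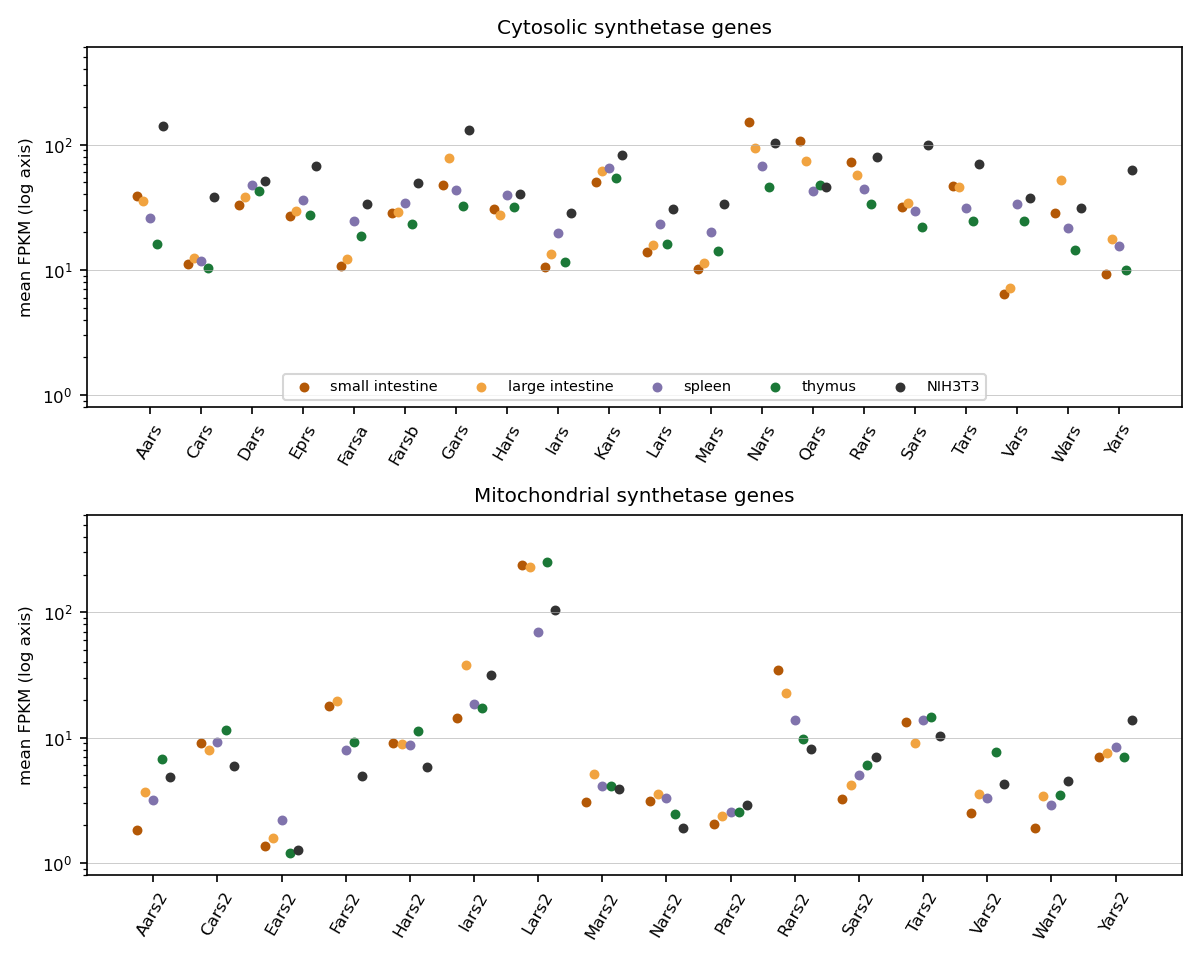
Mean FPKM over all libraries of a system (log axis) for each of 20 cytosolic and 16 mitochondrial synthetase genes, 1 dot per system. Cytosolic genes sit higher, with NIH3T3 on top for 17 of 20, and Lars2 stands far above the other mitochondrial genes in every system.

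Lars2, which charges mitochondrial leucine tRNA, behaved unlike the other members. It reached 1618 FPKM at 7 h in small intestine, against 26.3 FPKM at 0 h, and 1157 FPKM at 8 h in thymus, against 26.2 FPKM at 0 h. In large intestine the highest value was 851 FPKM, at 3 h. In small intestine the hours beside the highest did not share its level, with 27.6 FPKM at 6 h, 1618 at 7 h and 51.9 at 8 h. In thymus Lars2 had 27.4 FPKM at 6 h, 502 at 7 h, 1157 at 8 h and 527 at 24 h. Lars2 moved with Rn45s, the 45S precursor of ribosomal RNA. Across the 54 libraries the Pearson correlation of their log2 values was 0.974, and within systems it ran from 0.876 in spleen (n = 10) to 0.998 in small intestine (n = 10). The other mitochondrial members had correlations with Rn45s of -0.32 to 0.223 over the same libraries. The libraries of a system share its tissue or line and differ in depth. Ribosomal RNA precursors are not expected in polyadenylated RNA, and the part of their carry-over in the Lars2 values was not tested. Lars2 passed the limma test in no comparison as designed, though in thymus it passed in some alternatives. Among these were 7 to 8 h against 1 to 6 h, at 4.05 on the log2 scale (limma adjusted p = 0.00155). Another was 6 to 8 h against 1 to 5 h without the 6 h library, at 3.90 (limma adjusted p = 0.00538).

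**Figure D2:**
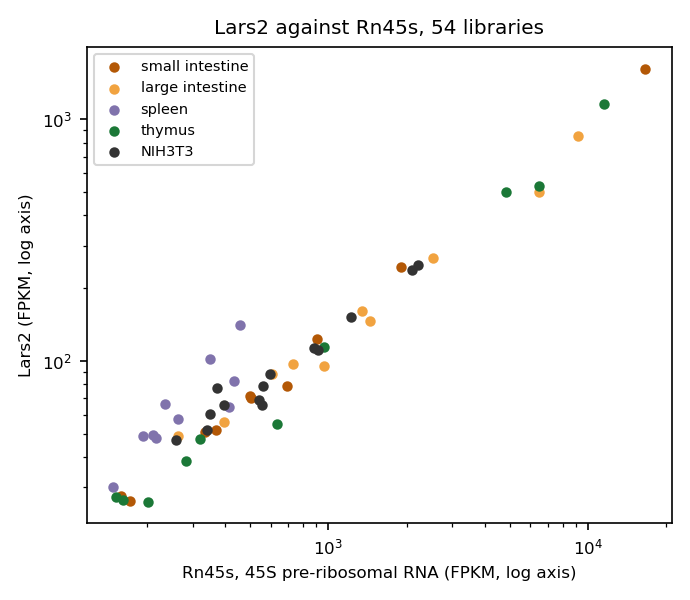
Lars2 against Rn45s, both in FPKM on log axes, 1 point per library and 54 in all. Both genes climb together, with most spleen libraries somewhat above the others at the same Rn45s level and the 7 h small intestine library at the top right (Lars2 1618 FPKM).

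Set against 0 h, the course of each class is given here for spleen, thymus and NIH3T3. Changes here are differences of log2(FPKM + 1), averaged over the members of a class. In spleen the cytosolic mean stood at 0.48 at 2 h and 0.36 at 3 h, and at -0.07 to -0.06 from 6 to 8 h. The mitochondrial mean without Lars2 lay between -0.18 and 0.04 up to 5 h and between -0.49 and -0.36 from 6 to 8 h. In thymus the cytosolic mean was lowest at 4 h, at -0.45, and stood at -0.14 at 8 h, while the mitochondrial mean was -0.17 at 4 h and -0.50 at 8 h. In NIH3T3 the mitochondrial mean was lowest at 3 h, at -0.32, and the cytosolic mean lay between -0.20 and -0.12 from 5 to 12 h. The median of all genes stayed between -0.05 and 0.03 at 1 to 12 h in every system. These are descriptions of single libraries, and no test was made of the class means.

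The difference between the classes, cytosolic minus mitochondrial, changed over 1 to 8 h by 0.29 ± 0.19 in spleen, -0.19 ± 0.15 in thymus, 0.05 ± 0.19 in NIH3T3, -0.03 ± 0.18 in small intestine and -0.02 ± 0.11 in large intestine (SD, n = 8 hours each, all 17 mitochondrial genes). In spleen it lay above 0 at all 8 hours, each set against the same single 0 h library. Its lowest values, 0.03 at 4 h and 0.04 at 5 h, were under the pooled SD within windows of 0.17. At 24 h it was 0.0007. In NIH3T3 the mean over 1 to 8 h covers a change of sign. The difference was 0.24, 0.20, 0.27 and 0.13 at 1, 2, 3 and 4 h. It was -0.06, -0.06, -0.10 and -0.25 at 5, 6, 7 and 8 h. It stayed below 0 at every later hour, with -0.19 at 24 h. These NIH3T3 values include Lars2, and those at 5, 6 and 7 h were smaller in size than the pooled SD within windows of 0.12. In thymus the value depended on Lars2 and on the summary: it was -0.07 without Lars2, and 0.25 with medians of the members in place of means.

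**Figure D3:**
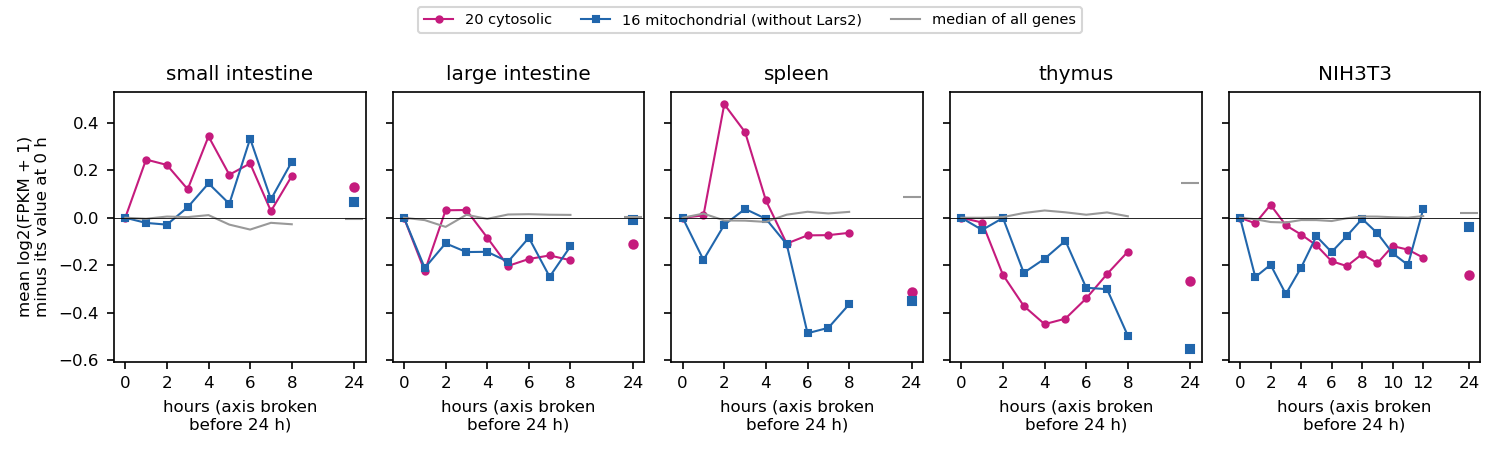
Mean change from 0 h of log2(FPKM + 1) by hour (axis broken before 24 h) for the 20 cytosolic and the 16 mitochondrial genes other than Lars2, with the median of all genes tested in grey. In spleen the cytosolic line peaks at 0.48 at 2 h and the mitochondrial line drops to -0.49 at 6 h, while in thymus the cytosolic line is lowest at 4 h.

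**Figure D4:**
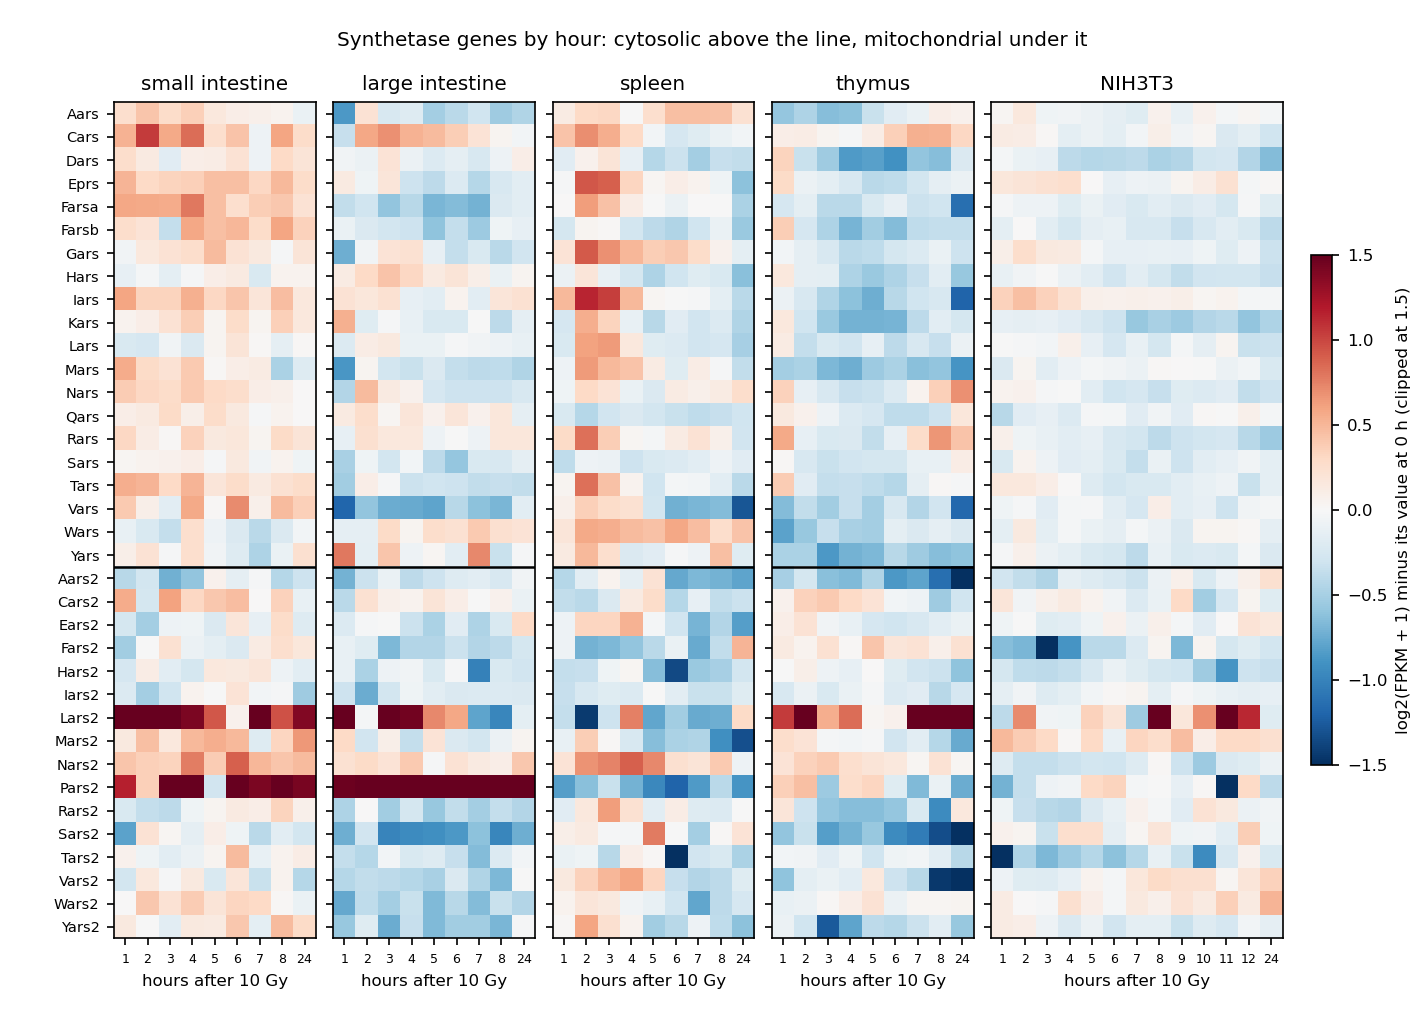
Change from 0 h of log2(FPKM + 1) for 36 synthetase genes (rows) at each hour (columns) in the 5 systems, red for higher and blue for lower than 0 h, clipped at 1.5. Red cells at 2 and 3 h stand out among the cytosolic genes of spleen, and blue cells fill much of the cytosolic block in thymus from 2 to 6 h.

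In spleen, 16 of the 20 cytosolic synthetases had their highest value of all 10 libraries at 2 or 3 h. Among all 11791 genes tested in spleen, 18.0% did, and among the 16 mitochondrial members without Lars2, 4 did. The same count of the 20 cytosolic members was 11 in large intestine, beside 25.1% of all genes tested, and 10 in NIH3T3, beside 10.6%. It was 3 in small intestine, beside 22.3%, and 0 in thymus, beside 8.53%. Most of these highest values came from the single 2 h library: 14 in spleen, 6 in large intestine and all 10 in NIH3T3. Of all genes tested, 13.9%, 18.3% and 5.91% were highest in those 3 libraries, in the same order. The hours 2 and 3 h were not set in the plan, so the counts at these hours describe the values and test nothing. The 2 h large intestine library is the one with enterocyte transcripts. In spleen, Iars had 35.2 and 32.5 FPKM at 2 and 3 h, against 15.3 FPKM at 0 h. Eprs had 59.2 and 58.0 FPKM, against 30.6 at 0 h. At 5 h Iars had 15.7 FPKM and Eprs 31.3 FPKM, close to 0 h. Kars, the lysine enzyme, reached 98.9 FPKM at 2 h, against 67.6 at 0 h, and Rars, for arginine, 69.0 against 38.6. Gars, for glycine, had 63.9 FPKM at 2 h, against 33.4 at 0 h, and Tars, for threonine, 52.4 against 29.2. Qars went against its class: at 37.9 FPKM, its 2 h value was its lowest in spleen, against 51.5 at 0 h, its highest. Each hour was 1 library, so these single-hour values carry no test, and the mean over 1 to 8 h against 0 h passed for none of the 37 members by limma, against 8.61% of all genes tested. At an unadjusted p below 0.05, 4 members passed, beside 23.3% of all genes tested. Among the largest differences over 1 to 8 h were those of Wars (0.44), Gars (0.43), Iars (0.38), Pars2 (-0.74) and Lars2 (-0.52). The mean of 11 measured Myc growth genes, a list of Myc itself and growth genes mostly of ribosome making, stood 1.41 above 0 h on the same log2 scale at 2 h, and that of 21 tRNA modification genes 0.64 above it.

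Promoter windows from RefSeq (GRCm38.p6, 250 bases before to 50 after the annotated start) were found for 27 of the 37 members, 13 cytosolic and 14 mitochondrial. They were searched on both strands for TGATGNAA, the core of the C/EBP-ATF response element through which ATF4 acts on amino acid response genes. Counted by gene, the letters were found in 5 of the 13 cytosolic and 0 of the 14 mitochondrial members. Counted by single window, which is another unit, they were in 3.97% of all 32851 windows of the table. A gene counted if any of its windows held the letters, so shares by gene and by window cannot be compared directly. CACGTG is the E-box that Myc and related factors bind. By gene it was found in 4 cytosolic members (Aars, Farsb, Iars and Tars) and 1 mitochondrial member (Ears2), and by window in 7.15% of all windows. It did not overlap TGATGNAA in any member. A match describes letters only, and binding was not measured. All 5 windows with TGATGNAA are shown, since Iars, Gars and Tars were, with Eprs, the 4 members furthest above 0 h at 2 h in spleen. Each runs from 130 bases before to 20 bases after the start in the direction of the gene, and capitals mark TGATGNAA or its reverse complement. The windows are chr13:49682000-49682149 for Iars, chr6:55037871-55038020 for Gars, chr8:111033712-111033861 for Aars and chr4:129189773-129189922 for Yars, all on the plus strand, and chr15:11399639-11399788 on the minus strand for Tars. The annotated Aars and Yars genes begin further upstream than the starts used in their windows.
Iars: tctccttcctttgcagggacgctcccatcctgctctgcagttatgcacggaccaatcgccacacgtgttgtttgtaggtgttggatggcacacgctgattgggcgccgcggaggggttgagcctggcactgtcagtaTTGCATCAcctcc
Gars: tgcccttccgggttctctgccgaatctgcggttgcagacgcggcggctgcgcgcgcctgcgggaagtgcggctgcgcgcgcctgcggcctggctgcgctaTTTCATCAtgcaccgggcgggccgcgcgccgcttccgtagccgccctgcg
Tars: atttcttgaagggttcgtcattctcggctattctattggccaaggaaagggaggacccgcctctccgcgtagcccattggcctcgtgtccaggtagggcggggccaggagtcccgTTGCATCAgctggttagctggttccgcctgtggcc
Aars: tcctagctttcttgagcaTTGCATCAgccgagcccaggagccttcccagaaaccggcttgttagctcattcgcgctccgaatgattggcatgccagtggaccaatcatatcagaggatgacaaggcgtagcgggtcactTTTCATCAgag
Yars: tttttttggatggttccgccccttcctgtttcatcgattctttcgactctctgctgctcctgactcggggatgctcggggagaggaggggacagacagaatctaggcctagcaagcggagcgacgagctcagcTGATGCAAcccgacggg

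The first letters of the match stood 30 bases before the start in Gars, 15 before it in Tars, and at bases 8, 4 and 10 after it in Iars, Yars and Aars. Aars held a further match 112 bases before the start. At 2 h in spleen the log2 difference from 0 h was 1.15 for Iars, 0.92 for Gars, 0.82 for Tars, 0.49 for Yars and 0.30 for Aars. Eprs, with a window but without the letters, differed by 0.93, and Rars, without a window, by 0.82. The mean of the amino acid response gene list stood 0.20 above 0 h in the same library. Genes of that list did not move together. Asns, the asparagine synthetase, had 4.69 FPKM at 2 h and 2.67 to 5.01 FPKM from 1 to 5 h, against 11.2 at 0 h. Slc7a11, a cystine transporter gene, had 2.53 FPKM at 2 h, against 2.27 at 0 h. The part of ATF4 in these values was not tested.

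Members of both classes fell in spleen between 1 to 5 h and 6 to 8 h. Of the 37 members, 11 were lower at 6 to 8 h and none higher (limma, Benjamini-Hochberg adjusted p below 0.05). Of all genes tested, 12.2% were lower and 27.7% passed in either direction. The median change over the members was -0.28 on the log2 scale, against 0.02 over all genes tested. By class, 4 of 20 cytosolic and 7 of 17 mitochondrial members were lower.

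Vars had 22.7, 23.2 and 23.8 FPKM at 6, 7 and 8 h, against 39.998, 49.0, 46.3, 44.6 and 31.1 FPKM at 1 to 5 h. All 3 late libraries were under all 5 early ones, and the log2 fold change was -0.82 ± 0.17 (limma SE, adjusted p = 0.00098). Iars had 15.3, 15.2 and 13.7 FPKM at 6 to 8 h, against 22.0, 35.2, 32.5, 22.0 and 15.7 FPKM at 1 to 5 h, a log2 fold change of -0.70 ± 0.16 (limma adjusted p = 0.00339). Its groups did not overlap, though 5 h and 6 h were close. The other cytosolic members that fell were Cars (-0.56 ± 0.18) and the leucine enzyme Lars (-0.45 ± 0.16).

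Of the mitochondrial genes, Vars2, for valine, had 2.17, 1.96 and 2.07 FPKM at 6 to 8 h, against 3.46, 4.11, 4.69, 5.03 and 4.02 FPKM at 1 to 5 h (log2 fold change -0.77 ± 0.19, limma adjusted p = 0.00503). Aars2, for alanine, had 2.01, 2.19 and 2.11 FPKM, against 2.78, 3.57, 4.31, 3.66 and 4.93 FPKM (-0.63 ± 0.15, limma adjusted p = 0.00378). Both genes were lower at 6 to 8 h in every library, with no overlap. Ears2, the glutamate enzyme (-0.69 ± 0.14), Tars2, for threonine (-0.68 ± 0.23), Wars2, for tryptophan (-0.54 ± 0.13), Mars2, for methionine (-0.50 ± 0.18), and Nars2, for asparagine (-0.37 ± 0.13), were the others past the threshold. Tars2 rested on 1 library: it had 4.04 FPKM in the 6 h library with pancreatic transcripts, and 13.5 and 14.2 FPKM at 7 and 8 h, against 12.3 to 18.0 FPKM at 1 to 5 h. Without that library, 6 members were called in place of 11: Iars, Vars, Aars2, Ears2, Vars2 and Wars2. A fit of spleen alone also called 6, with Cars in place of Iars, and a comparison of 7 to 8 h with 1 to 6 h called 4: Vars, Iars, Ears2 and Wars2.

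Genes of related lists were lower in the same comparison. Of 11 Myc growth genes 9 were lower, among them Myc (-1.42 ± 0.33) and the ribosome maker Fbl (-1.27 ± 0.32), and of 21 tRNA modification genes 6 were lower and none higher. Among cytosolic translation factors 4 of 18 were lower, and among mitochondrial ones 1 of 18, Ptcd3. The amino acid response list split, with 4 of 22 tested genes higher, among them the cystine transporter gene Slc7a11 (1.5 ± 0.15), and 2 lower. The summed level of this list was 1229 FPKM in the 6 h library with pancreatic transcripts, against 593 and 634 FPKM at 7 and 8 h. Asns, the asparagine synthetase, was called with that library (0.97 ± 0.34) but not without it (0.32 ± 0.28, limma adjusted p = 0.457), having 22.7 FPKM at 6 h and 5.47 and 4.66 FPKM at 7 and 8 h. Without the 6 h library the lower counts were 8 of 11 Myc growth genes, 4 of 21 tRNA modification genes, 2 of 18 cytosolic translation factors and 5 of 6 B cell genes. All 6 B cell genes were lower as well, with a summed level of 317 to 334 FPKM at 6 to 8 h, against 574 to 1710 at 1 to 5 h. Of 6 macrophage genes, 4 were higher, at 5900 to 6380 FPKM, against 3237 to 5206. In bulk tissue, fewer cells of a type and less RNA per cell cannot be told apart, and the part of these cell types in the synthetase values was not tested.

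By 24 h in spleen, 31 of 37 members lay under 0 h, where 44.6% of all genes tested did, and 3 passed the test, all lower, beside 7.47% of all genes tested that were lower and 20.7% that passed in either direction. Vars had 15.1 FPKM at 24 h, against 38.0 at 0 h (log2 fold change -1.28 ± 0.32, limma adjusted p = 0.00722). Mars2 had 1.53 FPKM, against 5.31 (-1.32 ± 0.35), and Ears2 0.88 FPKM, against 2.33 (-0.82 ± 0.27). These are single libraries, which the fit assumes to vary like libraries within a window, and in every system the 24 h and the 1 to 8 h comparisons share the 0 h library. When spleen was fitted by itself, Vars was the 1 member called. All 6 B cell genes were lower at 24 h, with 289 FPKM in sum against 2206 at 0 h, and 5 of 6 macrophage genes were higher, with 11542 against 3311. Summed erythroid genes stood at 464 FPKM at 24 h, against 20932 at 0 h and 6226 to 37997 at 1 to 8 h. The part of these cell types was not tested. The other members with large differences were the histidine enzyme Hars (-0.63, adjusted p = 0.0522 by limma), Eprs (-0.62) and the proline enzyme Pars2 (-0.89), none of them past the threshold.

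**Figure D5:**
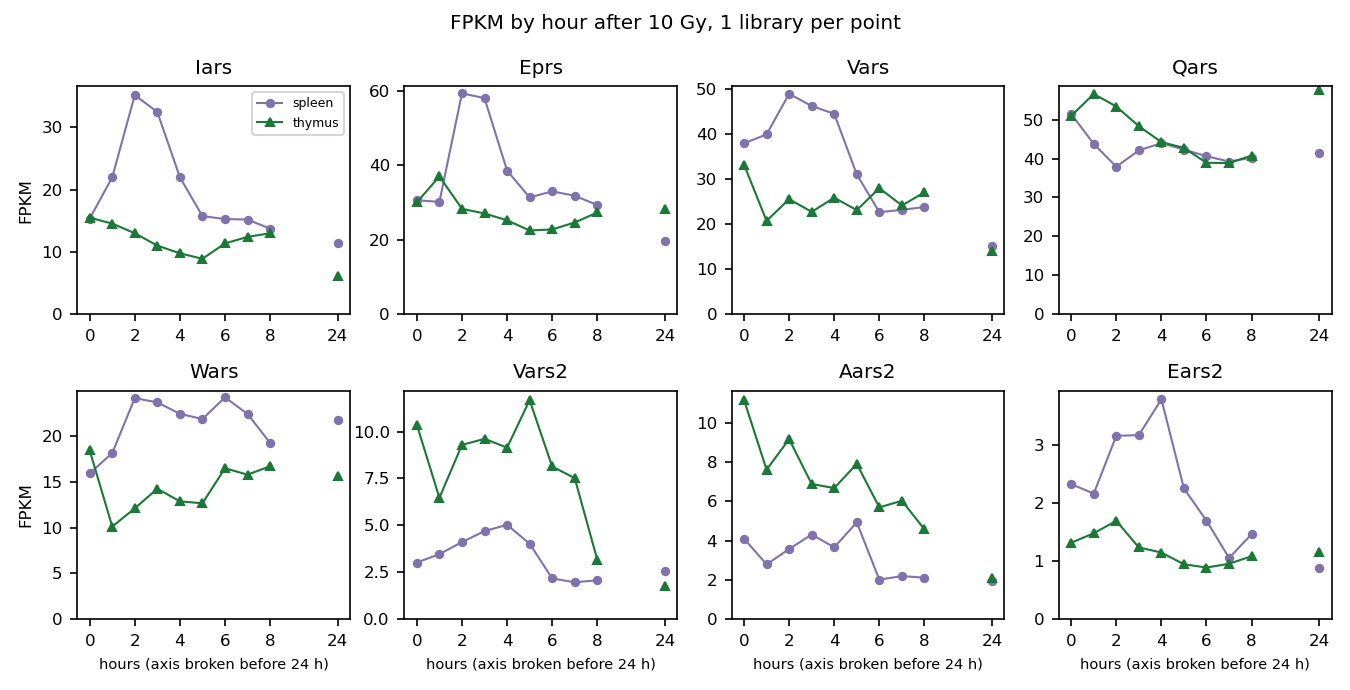
FPKM by hour (axis broken before 24 h) of 8 synthetase genes in spleen (circles) and thymus (triangles), 1 library per point. Iars and Eprs peak at 2 and 3 h in spleen but not in thymus, and Vars2, Aars2 and Ears2 are low in spleen from 6 h.

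In thymus most cytosolic members lay under 0 h from 2 h on. At 1 h 12 of the 20 were above their 0 h value, at 4 h 0 were, and at 8 h 5 were, beside 49.8%, 52.9% and 50.4% of all genes tested at those hours. None of the 37 members passed for 1 to 8 h against 0 h by limma, against 12.1% of all genes tested, although 30 lay under 0 h, where 48.2% of all genes tested did. An unadjusted p below 0.05 was found for 5 members by limma, beside 26.1% of all genes tested. A fit of thymus alone called 3, all lower: the tyrosine enzyme Yars (-0.60), Mars (-0.58) and the serine enzyme Sars2 (-0.80). The other large differences were in Dars (-0.54), Aars2 (-0.66) and, in the other direction, Lars2 (1.78).

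At 6 to 8 h against 1 to 5 h in thymus, 2 cytosolic members were higher, and 1 cytosolic and 4 mitochondrial members were lower, which makes 7 of 37. Of all genes tested, 18.6% were higher, 13.4% lower and 32.1% passed in either direction. Wars had 16.5, 15.8 and 16.7 FPKM at 6 to 8 h, against 10.1, 12.1, 14.3, 12.9 and 12.7 FPKM at 1 to 5 h (0.38 ± 0.11, limma adjusted p = 0.0122). Every late value was above every early one, but none reached the 18.5 FPKM of 0 h. Aars had 16.9, 17.9 and 20.7 FPKM, against 12.5, 13.6, 11.98, 12.1 and 14.999 FPKM (0.47 ± 0.15). Qars had 38.9, 38.9 and 40.8 FPKM, against 56.6, 53.4, 48.3, 44.2 and 42.7 FPKM (-0.30 ± 0.07, limma adjusted p = 0.00175), again with no overlap. Cars (0.40) and Lars2 (2.32) did not pass.

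Among the mitochondrial members that fell were Vars2 (-0.56 ± 0.19), the cysteine enzyme Cars2 (-0.48 ± 0.17) and Aars2 (-0.43 ± 0.15). Their lowest value in these hours came in each case from the shallow 8 h library: Vars2 had 8.14, 7.52 and 3.17 FPKM at 6, 7 and 8 h, against 6.47 to 11.7 FPKM at 1 to 5 h. Without the 8 h library Qars alone passed (adjusted p = 0.00563 by limma), and Wars stood at 0.36 with an adjusted p of 0.0515. A comparison of 7 to 8 h with 1 to 6 h kept 2 of the 7 calls, beside 20.6% of all genes tested that passed. Qars was not among them, at -0.23 (limma adjusted p = 0.0585), nor was Wars, at 0.31 (limma adjusted p = 0.144). Of 12 interferon gamma genes 6 were higher, as Wars was, and none lower, led by Cxcl10 (1.83 ± 0.33) and Gbp2 (1.42 ± 0.31). Over the same hours 4 of 6 T cell genes and 5 of 6 genes of cycling cells were lower, and 4 of 6 macrophage genes higher. Without the 8 h library, 3 of 12 interferon gamma genes and 2 of 6 macrophage genes were higher, and 1 T cell gene and 4 genes of cycling cells lower. The summed T cell level was 916 to 1156 FPKM at 6 to 8 h, against 1568 to 2082 at 1 to 5 h, and its part was not tested.

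At 24 h in thymus, 8 members were lower than at 0 h and none higher, beside 18.6% of all genes tested that were lower and 44.9% that passed in either direction. Vars2 had 1.74 FPKM, against 10.4 at 0 h (log2 fold change -2.05 ± 0.37, limma adjusted p = 0.00011). Aars2 had 2.08 FPKM, against 11.2 (-1.98 ± 0.29), and Sars2 2.76 FPKM, against 10.6 (-1.63 ± 0.38). The cytosolic members that passed were Iars (-1.20 ± 0.32), Vars (-1.18 ± 0.32), the phenylalanine subunit Farsa (-1.13 ± 0.25), Mars (-0.88 ± 0.33) and Hars (-0.57 ± 0.23). Nars, at 71.1 FPKM against 43.8, and Lars2, at 527 FPKM against 26.2, did not pass. The 24 h library is single and is the one with enterocyte transcripts, at 8734 FPKM against 13.5 to 36.7 in the other thymus libraries. Its T cell genes were at 260 FPKM, against 2160 at 0 h, and all 6 passed as lower. Neither of these was tested for its part in the synthetase values. The median of all genes stood 0.15 above 0 h in this library, so relative to it the members lay lower by that much again.

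In NIH3T3 the members called at 9 to 12 h were lower where cytosolic and higher where mitochondrial, all by less than 0.5 on the log2 scale. None of the 37 members passed for 1 to 8 h against 0 h by limma, beside 4.47% of all genes tested, and 3 had an unadjusted p below 0.05, beside 25% of all genes tested. Among the farthest from 0 h were Dars (-0.30), Kars (-0.27), Iars (0.21), Tars2 (-0.68) and Fars2 (-0.59). At 9 to 12 h against 1 to 5 h, 7 of 20 cytosolic members were lower and none higher, and 2 of 17 mitochondrial members were higher and none lower. Of all genes tested, 6.52% were lower, 7.04% higher and 13.6% passed in either direction.

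Kars had 70.8, 76.0, 78.4 and 68.6 FPKM at 9 to 12 h, against 95.2, 94.7, 95.0, 92.3 and 87.9 FPKM at 1 to 5 h (log2 fold change -0.34 ± 0.06, limma adjusted p = 0.00471). All 4 late values were under all 5 early ones. Rars had 74.0, 75.5, 76.7 and 68.5 FPKM, against 96.7, 87.8, 85.2, 82.3 and 83.8 FPKM (-0.24 ± 0.06), also without overlap. Gars had 118 to 128 FPKM, against 132 to 161 (-0.23 ± 0.06), without overlap. Iars had 25.4 to 27.6 FPKM, against 27.6 to 35.9 (-0.26 ± 0.06), and its groups met at 27.6 FPKM. Nars (-0.22 ± 0.06), Tars (-0.22 ± 0.07) and Hars (-0.22 ± 0.06) were the other cytosolic members that fell.

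Rars2 was higher at 9 to 12 h (0.32 ± 0.10, adjusted p = 0.0476 by limma), with 7.67 to 10.3 FPKM, against 6.17 to 8.29, which overlap. It lost the call without a filter, with quantile normalization and with other window borders (limma adjusted p = 0.0721, 0.0676 and 0.0868). Most fits with 1 library left out also lost it, at an adjusted p of up to 0.147 by limma. Tars lost its call in the same 3 alternatives, with a pseudocount of 0.1, and in most fits with 1 library left out. Quantile normalization, which forces all libraries to 1 distribution, left 4 of the 9 calls, among them Kars, Iars and Hars. Without the 2 h or the 10 h library 5 members were called. Lars2 (0.85), the phenylalanine enzyme Fars2 (0.57) and Tars2 (0.49) were farther from 0 than Rars2, with wider errors, and did not pass.

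The same window held lower levels in 9 of 11 Myc growth genes, led by Odc1 (-0.67 ± 0.10), in 6 of 18 cytosolic translation factors, and in none of 18 mitochondrial translation factors. The amino acid response list was split, with 2 of 26 genes higher, among them the proline synthesis gene Pycr1 (0.46 ± 0.11), and 5 lower, among them the amino acid transporter Slc7a5 (-0.69 ± 0.10). At 6 to 8 h against 1 to 5 h, 2 members were lower beside 1.44% of all genes tested that were lower and 2.3% in either direction: Kars (-0.30 ± 0.07) and Nars (-0.29 ± 0.06). Both lost the call when the 1, 2, 3, 4, 7, 8 or 10 h library was left out. Tars (-0.29), Fars2 (0.65), Tars2 (0.47) and Lars2 (0.37) did not pass.

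At 24 h in NIH3T3, 3 members were lower than at 0 h and none higher, beside 5.4% of all genes tested that were lower and 11% that passed in either direction. Dars, the aspartate enzyme, had 40.3 FPKM at 24 h, against 64.0 at 0 h (log2 fold change -0.65 ± 0.15, limma adjusted p = 0.0158). Rars had 62.4 FPKM, against 91.7 (-0.55 ± 0.12), and Kars 75.0 FPKM, against 104 (-0.46 ± 0.13). All 3 enzymes belong to the multi-synthetase complex. Of the 11 genes of that complex 5 were lower, the other 2 being the scaffold genes Aimp2 (-0.64 ± 0.17) and Aimp1 (-0.52 ± 0.15). With quantile normalization Dars alone of the 3 passed. Wars2 (0.51), Pars2 (-0.39) and Vars2 (0.34) were the farthest from 0 h among mitochondrial members, and none passed. The NIH3T3 cultures also held fewer transcripts of cycling cells at 24 h, 237 FPKM in sum, against 337 at 0 h, with 2 of 6 genes called, and the part of growth state was not tested.

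In the intestines almost no member passed. In small intestine no member passed in any of 3 comparisons by limma, beside 0.316% of all genes tested at 1 to 8 h, 0.579% at 6 to 8 h and 0.184% at 24 h. At an unadjusted p below 0.05 the counts were 3, 6 and 2 members, beside 6.56%, 12.1% and 6.89% of all genes tested in the same order of comparisons. The cytosolic mean was above 0 h in all 9 irradiated libraries, by 0.03 to 0.34, against a single 0 h library. The largest differences at 1 to 8 h were in Cars (0.52), Farsa (0.50) and Eprs (0.40), with Farsa at 9.29 to 14.02 FPKM, against 7.66 at 0 h. Among mitochondrial genes these were Lars2 (2.02), Pars2 (1.14) and Nars2 (0.51). At 6 to 8 h Mars (-0.38), Yars (-0.35), Cars (-0.33), Pars2 (0.74), Lars2 (0.46) and Rars2 (0.39) lay farthest from 1 to 5 h. At 24 h Vars (0.36), Farsb (0.35), Cars (0.27), Pars2 (1.42), Lars2 (1.39) and Mars2 (0.65) lay farthest from 0 h.

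In large intestine 1 member passed at 1 to 8 h, as higher, beside 1.24% of all genes tested that were higher and 1.51% in either direction, and none at 6 to 8 h (0.54%) or 24 h (0.262%). For those 2 comparisons 1 member each had an unadjusted p below 0.05 by limma, beside 13.7% of all genes tested at 6 to 8 h and 7.47% at 24 h. The member was Pars2, the proline enzyme of mitochondria, with 1.78 to 3.56 FPKM at 1 to 8 h and a value of 0.00222 FPKM at 0 h (log2 fold change 1.84 ± 0.44, limma adjusted p = 0.0362). The call rests on that 1 value, and Pars2 was also listed near 0 in single libraries elsewhere, at 0.092 FPKM at 5 h in small intestine and 0.372 FPKM at 11 h in NIH3T3. Leaving out the 6 h library gave an adjusted p of 0.0545 by limma. Vars had 4.26 to 7.94 FPKM at 1 to 8 h, against 10.96 at 0 h (-0.72), and Sars2 3.15 to 5.75 FPKM, against 7.25 (-0.79), neither past the threshold. The other large differences were in Farsa (-0.49), Aars (-0.35) and Lars2 (0.80) at 1 to 8 h. At 6 to 8 h they included Nars (-0.30), Vars (0.24), Gars (-0.24), Lars2 (-1.92) and Pars2 (0.29). At 24 h they were in Mars (-0.45), Aars (-0.45), Tars (-0.37), Pars2 (1.91), Sars2 (-0.74) and Rars2 (-0.44). The 2 h library, which held enterocyte transcripts, had the highest Nars value of large intestine, 139 FPKM, where small intestine ran from 129.6 to 169.8 FPKM.

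The change at 1 to 8 h differed between the lymphoid organs and the intestines for 2 members, both with a lower value in the lymphoid organs, beside 0.852% of all 9980 genes tested that were lower and 2.78% in either direction. For Qars the change was -0.31 in spleen and -0.17 in thymus, against 0.13 in small intestine and 0.14 in large intestine. The difference of the means was -0.38 ± 0.10 (limma adjusted p = 0.0381). Pars2 was the other, at -1.87 ± 0.44 (limma adjusted p = 0.0235). Its 0 h values were 4.57 FPKM in spleen and 2.59 in thymus, against 0.334 in small intestine and 0.00222 in large intestine. Both lost the call with other window borders. Dars (-0.39), Yars (-0.30) and Lars2 (-0.78) did not pass.

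Of the genes that serve both compartments, Kars passed only in NIH3T3, in the 3 comparisons above, and Gars only at 9 to 12 h there. In spleen Wars had 18.2 to 24.3 FPKM at 1 to 8 h, against 15.95 at 0 h, with every irradiated library above 0 h (0.44 ± 0.16, adjusted p = 0.0996 by limma). In large intestine Wars had 42.9 to 62.0 FPKM at 1 to 8 h, against 47.1 at 0 h, and in NIH3T3 it stayed between 27.7 and 35.9 FPKM in all 14 libraries. Of 12 interferon gamma genes 8 were higher at 24 h in thymus and 5 in spleen, and Wars at 24 h was 15.7 FPKM in thymus, against 18.5 at 0 h, and 21.8 in spleen, against 15.95.

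Gene models set a limit on some of these values. Hars and Hars2 lie on opposite strands and share 195 exonic bases. Aars overlaps Exosc6, on its own strand, by 1326 exonic bases, and Vars2 an antisense gene by 465. Iars shares 7.15% of its 50-base stretches with the pseudogene Gm4849. In unstranded libraries such reads can be split or counted for either gene.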

How the data were processed

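Polyadenylated RNA of 54 libraries was measured, 10 for each of 4 mouse tissues and 14 for NIH3T3. The deposited values are FPKM, which the authors made with TopHat2 2.1.0, Cufflinks 2.1.1 and the mm10 build, per the submitters' processing notes. No read counts were used here, and a rough relative depth was read from steps of low FPKM values. Since no label says how animals or cultures were divided over libraries, p-values reflect only how neighbouring hours vary, which may be technical.

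Log2(FPKM + 1) was fitted by window of hours (0, 1 to 2, 3 to 5, 6 to 8, 9 to 12 and 24 h) with limma 3.58.1 (R 4.3.3), trended empirical Bayes, for genes with a mean of at least 1 FPKM in the system. All 4 tissues (40 libraries) entered 1 model, leaving 20 degrees of freedom, and NIH3T3 another, leaving 8. Tests were two-sided, and p-values were Benjamini-Hochberg adjusted over all genes tested, with a threshold of 0.05. Libraries of neighbouring hours stand in for replicates. Comparisons at 0 h share 1 library per system. Gene lists are given by counts, with no test of a list.

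Members named are those past the threshold, the 3 cytosolic and 3 mitochondrial members with the largest absolute change in each comparison, and Wars, Kars, Gars and Qars. Of these, 1 mitochondrial member is counted in its class but not reported here. Members and lists were chosen with earlier results of these data known. Alternatives were a pseudocount of 0.1, no filter, a mean of at least 5 FPKM, separate fits, quantile normalization, other window borders (1 to 3, 4 to 6 and 7 to 8 h), and leaving out libraries. An hour block for the tissues, and gene lists without the 6 h spleen or 8 h thymus library, were added after seeing the data. The count of highest values at 2 or 3 h was not in the plan either. The tissue model assumes 1 spread for all tissues. In simulated data where each tissue had its own spread, it made more false calls in spleen than the separate fits did. Promoters are RefSeq, GRCm38.p6. Python 3.11.15, pandas 2.3.3, numpy 2.4.6 and matplotlib 3.10.9 were used.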

Additional observations from a re-analysis of the deposited data

Results flagged for a closer look

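Among 37 sets of 4 NIH3T3 libraries at 9 to 12 h, 1 per member, 3 had a library far from the others, and chance gives about 1 in 20 sets. Hars had 35.2 FPKM at 9 h, against 37.2 to 37.5 in the other libraries. Wars had 27.7 FPKM at 9 h, against 32.6 to 33.2. Yars had 68.2 FPKM at 12 h, against 59.3 to 60.5. The change at 1 to 8 h differed between the lymphoid organs and the intestines for Pars2, by -1.87 on the log2 scale, and for Qars, by -0.38 (limma).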

How the results depend on the processing

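In NIH3T3 no paired analysis was possible because each hour is 1 library of 1 system. The 4 tissues share their hours, and a fit with hour as a replicate block, chosen after seeing the data, called 1 member for lymphoid minus intestine, Pars2 without Qars, and 2 in thymus at 1 to 8 h, Aars2 and Sars2, and moved every other tissue count by at most 1. Deviations from the window means at the same hour had a correlation across genes above 0.1 in 5 of 48 pairs of tissue libraries (median 0.0408). The pairs at 1 h and 2 h repeat each other, because deviations in a window of 2 libraries mirror each other. The 5 pairs were spleen with thymus at 3 h (0.324) and 5 h (0.302), and large intestine with small intestine, spleen and thymus at 5 h (0.148, 0.183 and 0.149). The main fit did not pair by hour, and whether libraries of 1 hour share animals was not tested. Calls are limma counts of members, and for every result below that moved the cause was not tested. With a mean of at least 5 FPKM, fewer genes were tested and the counts were 0 in large intestine at 1 to 8 h, 1 for lymphoid minus intestine, 1 in spleen at 1 to 8 h, 1 at 24 h and 6 at 6 to 8 h, and 1 in thymus at 1 to 8 h. With separate fits they were 1 in spleen at 24 h, 6 at 6 to 8 h and 3 in thymus at 1 to 8 h. With quantile normalization they were 1 in NIH3T3 at 24 h, 0 at 6 to 8 h and 4 at 9 to 12 h, 1 in spleen at 1 to 8 h and 6 at 24 h, and 2 in thymus at 1 to 8 h. With other window borders they were 0 in large intestine at 1 to 8 h, 0 for lymphoid minus intestine, 1 in NIH3T3 at 6 to 8 h, 4 in spleen and 4 in thymus at 6 to 8 h. Without a filter, 1 was called in NIH3T3 at 6 to 8 h. With the 2 libraries of mixed organs (large intestine at 2 h, spleen at 6 h) left out, 1 was called in thymus at 1 to 8 h and 8 in spleen at 6 to 8 h.

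Leaving out 1 library at a time gave 0 to 1 calls in large intestine and 0 to 2 in spleen and in thymus at 1 to 8 h, and 1 to 2 for lymphoid minus intestine. At 6 to 8 h it gave 6 to 14 in spleen, 1 to 8 in thymus and 0 to 7 in NIH3T3. NIH3T3 at 9 to 12 h had 5 to 11. At 24 h it gave 3 to 4 in spleen, 8 to 9 in thymus and 2 to 3 in NIH3T3. Tars2 in spleen at 6 to 8 h reversed to 0.12 with other borders, and Lars2, with 1 library left out at a time, ranged from -0.28 to 0.88 in NIH3T3 and from -1.34 to 1.58 in small intestine.

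The class difference, cytosolic minus mitochondrial, moved most with Lars2. From summed FPKM it was -0.43 in large intestine, -0.67 in small intestine, -0.91 in thymus and -0.11 in NIH3T3 at 1 to 8 h, and -0.28 in small intestine, -0.28 in spleen and -2.05 in thymus at 24 h, and 0.053 in large intestine. From sums without Lars2 it was 0.21, 0.16 and -0.034 in large intestine, small intestine and thymus at 1 to 8 h, and 0.074 and 0.39 in large intestine and thymus at 24 h. Medians gave 0.25 in thymus at 1 to 8 h and 0.46 at 24 h, and means without Lars2 gave 0.29 there. A pseudocount of 0.1 gave -0.16 and -0.26 in large intestine at 1 to 8 and 24 h, and quantile normalization 0.22 and 0.026 in NIH3T3 at those times. Single libraries at 0 and 24 h and unknown fragment totals limit what these values can show.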
